A study of Homo sapiens with 24 samples.

Results

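BMP1, ADAMTS2, PCOLCE, PCOLCE2, PLOD2, LOX, LOXL1, LOXL2, LOXL3 and LOXL4 encode the enzymes, and their helper proteins, that trim procollagen and cross-link collagen fibrils. These 10 genes were chosen by name, with earlier results of these data known. A probe was assigned to one of them where its RefSeq transcript belonged to that gene. This gave 12 probes for the 10 genes, among 20503 genes on the arrays that could be given a RefSeq symbol. After a filter on dim probes, 9 of the 12 probes and 8 of the 10 genes were tested, among 24648 genes and transcripts in all, of which 16001 had a symbol.

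Fibrillar collagens leave the cell as procollagens that carry a propeptide at each end. In the endoplasmic reticulum the lysyl hydroxylase PLOD2 modifies lysines of the telopeptides, outside the cell ADAMTS2 removes the amino-terminal and BMP1 the carboxy-terminal propeptide, and PCOLCE and PCOLCE2 speed up the cut made by BMP1. The lysyl oxidases, LOX and LOXL1 to LOXL4, then oxidise lysines of the assembled fibrils, which starts the cross-links that stiffen scar tissue in the fibrotic liver, where stellate cells and other myofibroblasts are the best known source of matrix.

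HepaRG, a human hepatocellular carcinoma line of progenitors that can form hepatocyte-like and biliary-like cells, was profiled on 24 one-colour Agilent arrays, 3 for each of 8 conditions. The conditions were untransfected cells, cells transfected with a control siRNA (80 pmol), cells transfected with a β-catenin siRNA (80 pmol) and untransfected cells given 300 ng/ml FZD8_CRD, each without and with 200 ng/ml Wnt3a for 72 h. Both proteins were mouse recombinant proteins, and FZD8_CRD is the part of the receptor Frizzled-8 that binds Wnt, in soluble form. Transfected cells were detached and electroporated, so that control siRNA against untransfected cells compares the handling and the siRNA together. FZD8_CRD was compared with untransfected cells, without another recombinant protein as its control. The paper describes the serum-free medium that received the proteins as containing BSA. The 3 arrays of a condition came from independent cultures, each on its own slide. The p-values therefore measure the spread between cultures and slides together, and the main fit did not pair the arrays of a slide. Each slide held 1 array of every condition, always at the same place, with Wnt3a-treated cells in row 2, so that effects of place and of condition cannot be separated.

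Signals are given as log2 intensity over the 75th percentile of the array, so that a probe with a value of 0 is as bright as that percentile. Between 58.3% and 66.5% of the spots of an array were well above background, and signals too dim to detect were given the lowest value allowed, a floor of -6.13. The median standard deviation between the 3 arrays of a condition lay between 0.12 and 0.212, and the number of arrays limits the precision of every value. A gene is said to have risen or fallen where limma gave an adjusted p under 0.05 over all 24648 genes. An array of a given number is named below as array 1, 2 or 3 of its condition.

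The check of the labels rests on CTNNB1, the gene for β-catenin. Its log2 signal was 0.26, 0.35 and 0.52 on the arrays with β-catenin siRNA, and 0.33, 0.52 and 0.77 on those with β-catenin siRNA and Wnt3a. On the 18 other arrays it lay between 3.23 and 4.11, so that the groups did not overlap. CTNNB1 fell by 3.03 without Wnt3a (adjusted p = 1.17e-09) and by 3.02 with Wnt3a (adjusted p = 7.76e-10), on all 3 slides in both cases. In bulk RNA such as this, fewer cells that express a gene and less RNA per cell cannot be told apart.

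With Wnt3a in untransfected cells, 4 of the 8 members tested rose and 0 fell, where 5.6% of all genes were called. They were BMP1, PCOLCE2, PLOD2 and LOXL3, and the median change of the 8 members was 0.52, beside 0.01 for all genes. After control siRNA, Wnt3a raised 2 members, BMP1 and PCOLCE2, where 2.11% of all genes were called, and after β-catenin siRNA it raised 1, PCOLCE2, where 0.0406% were called. With FZD8_CRD, Wnt3a raised BMP1 and PCOLCE2 and lowered PCOLCE, 3 members where 8.29% of all genes were called. Single arrays moved these counts. In untransfected cells the count of 4 was 2 without array 2 or 3 of the untreated cells or array 1 of the Wnt3a-treated cells, and it was 1 without array 2 of the Wnt3a-treated cells. All genes called were then 408, 2803, 1146 and 179, in that order, in place of 1381. After control siRNA the count of 2 was 0 without array 1 or 3 of control siRNA or array 2 of control siRNA with Wnt3a, and 1 without array 1 or 3 of control siRNA with Wnt3a. Here 93, 57, 85, 318 and 143 of all genes were called, in that order, in place of 520. After β-catenin siRNA the count of 1 was 0 without any one of the 6 arrays, when between 0 and 8 of all genes were called, in place of 10.

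Against untransfected cells, control siRNA raised 5 of the 8 members without Wnt3a (BMP1, PCOLCE2, ADAMTS2, LOXL1 and LOXL3; 22.3% of all genes called) and 3 with Wnt3a (BMP1, LOXL1 and LOXL3; 9.04% called), and lowered 0. Against control siRNA, β-catenin siRNA lowered 2 members without Wnt3a, BMP1 and PCOLCE (10.6% called), and 4 with Wnt3a, BMP1, PCOLCE, LOXL1 and LOXL3 (10.6% called), and raised 0. FZD8_CRD changed 7 of the 8 members without Wnt3a (41.9% called) and 7 with Wnt3a (37.2% called). In both cases BMP1, PCOLCE2, ADAMTS2, LOXL1 and LOXL3 rose and PCOLCE and LOXL2 fell. These comparisons share control arrays with each other and with those of Wnt3a, so that their calls are not independent of one another. Without array 1 or 3 of Wnt3a-treated untransfected cells, or array 2 of control siRNA with Wnt3a, the count of 3 for control siRNA with Wnt3a was 0, and it was 1 without array 3 of control siRNA with Wnt3a. All genes called were then 271, 1327, 348 and 1013, in that order, in place of 2227. For β-catenin siRNA without Wnt3a, the count of 2 was 1 without array 1 or 2 of control siRNA or array 3 of β-catenin siRNA (1434, 1724 and 1353 of all genes called, in place of 2604). With Wnt3a, the count of 4 was 1 without array 1 or 2 of control siRNA or array 2 of β-catenin siRNA, and 2 without array 3 of either. Here 1935, 1859, 1682, 1963 and 1755 of all genes were called, in that order, in place of 2608. The count of 7 for FZD8_CRD with Wnt3a was 4 without array 3 of Wnt3a-treated untransfected cells (8762 of all genes called, in place of 9162).

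The scaling sets the level to which all these changes refer. The arrays also carry 7 spike-in probes, which detect a foreign RNA added to each sample. Their mean log2 signal was 2.37 in untransfected cells and between 2.50 and 2.85 in the other conditions. Its standard deviation between the 3 arrays of a condition was 0.18 to 0.43, a spread that enters every value scaled to the spike-ins. Scaling to them moved the median change of all genes from 0.01 to -0.38 for Wnt3a in untransfected cells, from -0.03 to -0.32 for control siRNA and from -0.09 to -0.48 for FZD8_CRD, both without Wnt3a. It moved it up from 0.02 to 0.18 for Wnt3a after control siRNA and from -0.02 to 0.25 for control siRNA with Wnt3a. With that scaling 305 genes were called for Wnt3a in untransfected cells, 22 higher and 283 lower, in place of 738 higher and 643 lower. For FZD8_CRD the split was 550 higher and 6827 lower without Wnt3a, in place of 4851 and 5471, and 669 and 1685 with Wnt3a, in place of 4493 and 4669. For Wnt3a it was 53 and 1 after control siRNA, in place of 269 and 251, and 155 and 89 with FZD8_CRD, in place of 1074 and 970. For control siRNA without Wnt3a it was 122 and 1439, in place of 3022 and 2479, for β-catenin siRNA with Wnt3a 40 and 600, in place of 1006 and 1602, and for the difference with FZD8_CRD 31 and 2, in place of 5 and 13. This scaling shifts every gene by the same amount, so that a member's change relative to the median of all genes does not depend on it. Of the 38 calls among 96 pairs of a member and a comparison (27 higher and 11 lower), 8 were kept with it. The values of 2 of the others then lay slightly below 0 without showing a direction, PLOD2 with Wnt3a in untransfected cells (from 0.39 to -0.003; adjusted p = 0.993, range over 21 alternatives 0.00135 to 0.993) and PCOLCE2 with FZD8_CRD without Wnt3a (from 0.26 to -0.13; adjusted p = 0.71, range 0.0316 to 0.71).

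**Figure D1:**
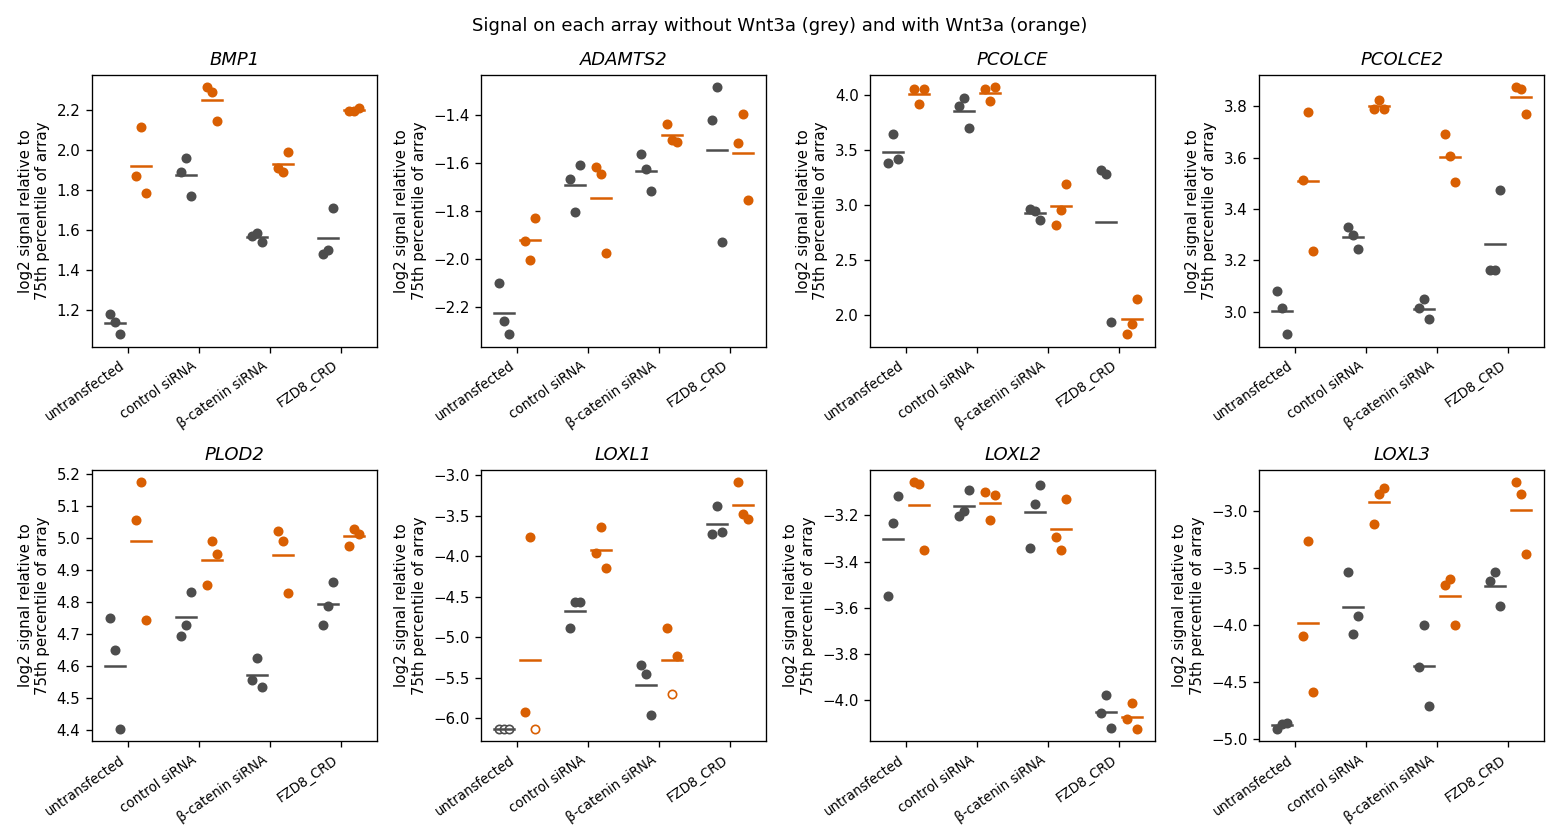
Log2 signal of the 8 members tested on each of the 24 arrays, relative to the 75th percentile of the array (vertical axis), by condition (horizontal axis), in grey without and in orange with Wnt3a. Points are arrays (open where not well above background), bars are means of 3 arrays, and LOXL1 in untransfected cells lies on the floor of -6.13.

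The plot of the signal on each array shows BMP1, ADAMTS2, LOXL1 and LOXL3 lowest in untransfected cells without Wnt3a, PCOLCE lowest with FZD8_CRD and Wnt3a, and LOXL2 low on the 6 arrays with FZD8_CRD. All called changes had one direction on the 3 slides, except PCOLCE with Wnt3a under FZD8_CRD, which was lower on 2 slides and higher on 1.

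BMP1 encodes the main proteinase that cuts the carboxy-terminal propeptide from fibrillar procollagens and also activates lysyl oxidase precursors. Without Wnt3a its log2 signal was 1.18, 1.14 and 1.08 in untransfected cells, 1.89, 1.96 and 1.77 after control siRNA, 1.57, 1.58 and 1.54 with β-catenin siRNA and 1.48, 1.496 and 1.71 with FZD8_CRD. With Wnt3a it was 1.87, 2.11 and 1.78, then 2.31, 2.29 and 2.14, 1.91, 1.89 and 1.99, and 2.19, 2.19 and 2.21, in the same order. The 3 untransfected arrays without Wnt3a were the lowest of the 24, and in each of the 4 backgrounds the arrays with Wnt3a lay above those without. The means ran from 2.25 after control siRNA with Wnt3a down to 1.13 in untransfected cells. Neighbours that overlapped in this order were control siRNA and FZD8_CRD with Wnt3a, then β-catenin siRNA with Wnt3a, untransfected with Wnt3a and control siRNA, and then β-catenin siRNA and FZD8_CRD.

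Wnt3a raised BMP1 by 0.79 in untransfected cells (standard error 0.08, adjusted p = 2.01e-05), by 0.38 after control siRNA (adjusted p = 0.019) and by 0.64 with FZD8_CRD (adjusted p = 0.000217). After β-catenin siRNA the log2 change was 0.37 (standard error 0.08, adjusted p = 0.103), which did not pass. The difference between the responses after β-catenin and control siRNA was -0.01 (95% interval -0.25 to 0.23, adjusted p = 1). Control siRNA raised BMP1 by 0.74 without Wnt3a (adjusted p = 2.66e-05) and by 0.33 with Wnt3a (adjusted p = 0.0154). Against control siRNA, BMP1 fell by 0.31 with β-catenin siRNA (adjusted p = 0.0161), and by 0.32 in the presence of Wnt3a (adjusted p = 0.012). FZD8_CRD raised BMP1 by 0.43 without Wnt3a (adjusted p = 0.000241) and by 0.28 with Wnt3a (adjusted p = 0.00981). Scaled to the spike-ins the changes with FZD8_CRD were 0.04 (adjusted p = 0.914) and 0.19 (0.706), neither called. None of the other BMP1 calls was kept with that scaling. Among them, control siRNA without Wnt3a gave 0.46 (adjusted p = 0.278) and Wnt3a under FZD8_CRD gave 0.55 (adjusted p = 0.641).

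Leaving out single arrays ended several of these BMP1 calls, mostly with a change of similar size. The rise with Wnt3a after control siRNA gave an adjusted p of 0.0787 and 0.11 without array 1 and 3 of control siRNA, and 0.0666 and 0.105 without array 1 and 2 of control siRNA with Wnt3a (changes of 0.32 to 0.38; range over 21 alternatives 0.0108 to 0.925). The rise of BMP1 after control siRNA in the presence of Wnt3a was lost without array 1 or 3 of Wnt3a-treated untransfected cells (0.0965 and 0.074) and without array 2 of control siRNA with Wnt3a (0.0855; changes of 0.26 to 0.31, range 0.000871 to 0.374). For β-catenin siRNA without Wnt3a the adjusted p was 0.0625 and 0.0836 without array 1 and 2 of control siRNA and 0.0656 without array 3 of β-catenin siRNA (changes of -0.30 to -0.27; range 0.00959 to 1). With Wnt3a it was 0.0594 and 0.0538 without array 1 and 2 of control siRNA and 0.0578 without array 2 of β-catenin siRNA (changes of -0.30 to -0.29; range 0.00373 to 0.434). The rise with FZD8_CRD in the presence of Wnt3a had an adjusted p of 0.0594 without array 3 of Wnt3a-treated untransfected cells (change of 0.21; range 0.000719 to 0.706). The rise of BMP1 with Wnt3a in untransfected cells kept its call without any 1 array, and was lost when scaled to the spike-ins (0.395, adjusted p = 0.322, range 7.56e-06 to 0.322). It was also lost when only the conditions compared were fitted (0.79, adjusted p = 0.237) and without replicate 2 (0.70, adjusted p = 0.0526).

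ADAMTS2, which removes the amino-terminal propeptide of fibrillar procollagens, was represented by the brighter of its 2 probes. Without Wnt3a its log2 signal was -2.10, -2.26 and -2.31 in untransfected cells, -1.67, -1.81 and -1.61 after control siRNA, -1.57, -1.63 and -1.72 with β-catenin siRNA and -1.42, -1.29 and -1.93 with FZD8_CRD. The untransfected arrays were the lowest 3, and those of the other 3 conditions overlapped one another. With Wnt3a the ranges were -2.01 to -1.83 in untransfected cells, -1.98 to -1.62 after control siRNA, -1.51 to -1.44 after β-catenin siRNA and -1.76 to -1.40 with FZD8_CRD. Of the means of the 8 conditions, from -2.22 to -1.49, each overlapped its neighbour in order, except that untransfected cells without Wnt3a lay below all others. ADAMTS2 was called for Wnt3a in 0 of the 4 backgrounds by limma, with changes of 0.30 (unadjusted p = 0.0425), -0.05, 0.15 and -0.01.

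ADAMTS2 rose by 0.53 after control siRNA (standard error 0.14, adjusted p = 0.00946), and by 0.68 with FZD8_CRD (adjusted p = 0.000622). Scaled to the spike-ins these changes were 0.245 and 0.287 (adjusted p = 0.62 and 0.455), neither called. Both calls were also lost without replicate 2 (0.57 and 0.53, adjusted p = 0.0807 and 0.0549). That after control siRNA was lost without replicate 1 (0.58, adjusted p = 0.159) and with the thresholds of the study as well. In the presence of Wnt3a the rise with FZD8_CRD was 0.36 (adjusted p = 0.0482). That last call was lost without any of 5 of the 6 arrays, namely array 1, 2 or 3 of Wnt3a-treated untransfected cells (adjusted p = 0.105, 0.125 and 0.0507) and array 1 or 2 of FZD8_CRD with Wnt3a (0.117 and 0.189; changes of 0.28 to 0.41, range over 21 alternatives 0.00212 to 0.63). The second probe of ADAMTS2 was called in none of the 12 comparisons. It gave 0.35 after control siRNA (adjusted p = 0.121) and 0.38 with FZD8_CRD (adjusted p = 0.0584), both without Wnt3a, and -0.02 with FZD8_CRD in the presence of Wnt3a (adjusted p = 0.927), so that the probes differed in sign there.

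PCOLCE encodes a secreted glycoprotein that binds the carboxy-terminal propeptide and speeds up its removal by BMP1. Its log2 signal without Wnt3a was 3.38, 3.65 and 3.42 in untransfected cells, 3.90, 3.98 and 3.71 after control siRNA, 2.96, 2.95 and 2.86 with β-catenin siRNA and 3.32, 3.28 and 1.93 with FZD8_CRD. In the presence of Wnt3a the values were 4.06, 3.93 and 4.06 in untransfected cells, 4.06, 3.95 and 4.08 after control siRNA, 2.82, 2.96 and 3.20 with β-catenin siRNA, and 1.82, 1.92 and 2.15 with FZD8_CRD. All 3 arrays with FZD8_CRD and Wnt3a lay below the 18 arrays outside FZD8_CRD, and the 6 arrays with β-catenin siRNA lay below the untransfected and control siRNA arrays. Array 3 of FZD8_CRD stood apart, at the level seen with FZD8_CRD and Wnt3a. Over all genes this array also correlated least with the other 2 of its condition (mean r = 0.9872), though arrays 3 and 2 of Wnt3a-treated untransfected cells were close (0.9875 and 0.9877). In the order of the means, control siRNA with Wnt3a (4.03 ± 0.07, SD, n = 3), untransfected with Wnt3a and control siRNA overlapped, untransfected cells (3.49 ± 0.15) stood alone, and β-catenin siRNA with and without Wnt3a overlapped each other and FZD8_CRD (2.85 ± 0.79). The lowest was FZD8_CRD with Wnt3a (1.96 ± 0.17).

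FZD8_CRD in the presence of Wnt3a lowered PCOLCE by 2.05, to 0.241 of the level with Wnt3a alone (standard error 0.23, adjusted p = 2.35e-06, lower on 3 of 3 slides). PCOLCE kept this call in all 21 alternatives, with an adjusted p between 2.01e-07 and 0.00327. β-catenin siRNA lowered PCOLCE by 0.94 without Wnt3a (standard error 0.23, adjusted p = 0.0108) and by 1.04 with Wnt3a (adjusted p = 0.00473), and no single array decided these calls. Both were lost without replicate 1 (-0.94 and -0.93, adjusted p = 0.182 and 0.147). They were also lost without replicate 2 (-0.89 and -1.06, adjusted p = 0.2 and 0.13). With the spike-ins the call without Wnt3a was lost (-0.85, adjusted p = 0.441). FZD8_CRD alone lowered PCOLCE by 0.64 (adjusted p = 0.0296). Without array 3 of FZD8_CRD that change was -0.18 (adjusted p = 0.204), and without array 2 of untransfected cells it was -0.56 (adjusted p = 0.0986; range over 21 alternatives 0.00536 to 0.229).

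Wnt3a left PCOLCE without a call in 3 backgrounds, with changes of 0.53 in untransfected cells (95% interval 0.05 to 1.01, adjusted p = 0.181), 0.17 after control siRNA and 0.07 with β-catenin siRNA. In untransfected cells it was called without replicate 3 (0.475, adjusted p = 0.00339). With FZD8_CRD, PCOLCE fell by 0.88 with Wnt3a (standard error 0.23, adjusted p = 0.0212), although the arrays of the groups overlapped. The changes on the 3 slides were -1.498, -1.37 and 0.22. This call was lost without array 1 or 2 of FZD8_CRD (adjusted p = 0.191 and 0.179) and without array 1 or 2 of FZD8_CRD with Wnt3a (0.0895 and 0.0743), with changes of -0.86 to -0.65. Without array 3 of FZD8_CRD the change was -1.34 (adjusted p = 9.85e-08; range over 21 alternatives 9.85e-08 to 0.74). The tested difference between the Wnt3a responses of PCOLCE with and without FZD8_CRD was -1.41 (standard error 0.32, 95% interval -2.09 to -0.74, adjusted p = 0.0816, lower on 3 of 3 slides).

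By that test of the difference, limma called 0 of the 8 members for FZD8_CRD (0.073% of all genes called, 1 member and 3128 genes at an unadjusted p under 0.05). The count was 1, PCOLCE, without array 3 of untransfected cells (-1.38, adjusted p = 0.0449) and without array 3 of FZD8_CRD (-1.87, adjusted p = 2.95e-07; range over 27 alternatives 2.95e-07 to 1), when 593 and 1911 of all genes were called, in place of 18. For β-catenin siRNA against control siRNA, limma called 0 members for a difference in the Wnt3a response (0.0162% of all genes called, 0 members and 822 genes at an unadjusted p under 0.05). The estimates of the 8 members for that difference ran from -0.45 for LOXL1 (95% interval -1.63 to 0.74) to 0.20 for ADAMTS2 (-0.21 to 0.62). A member called in one background and not in another is therefore not shown to respond differently.

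**Figure D2:**
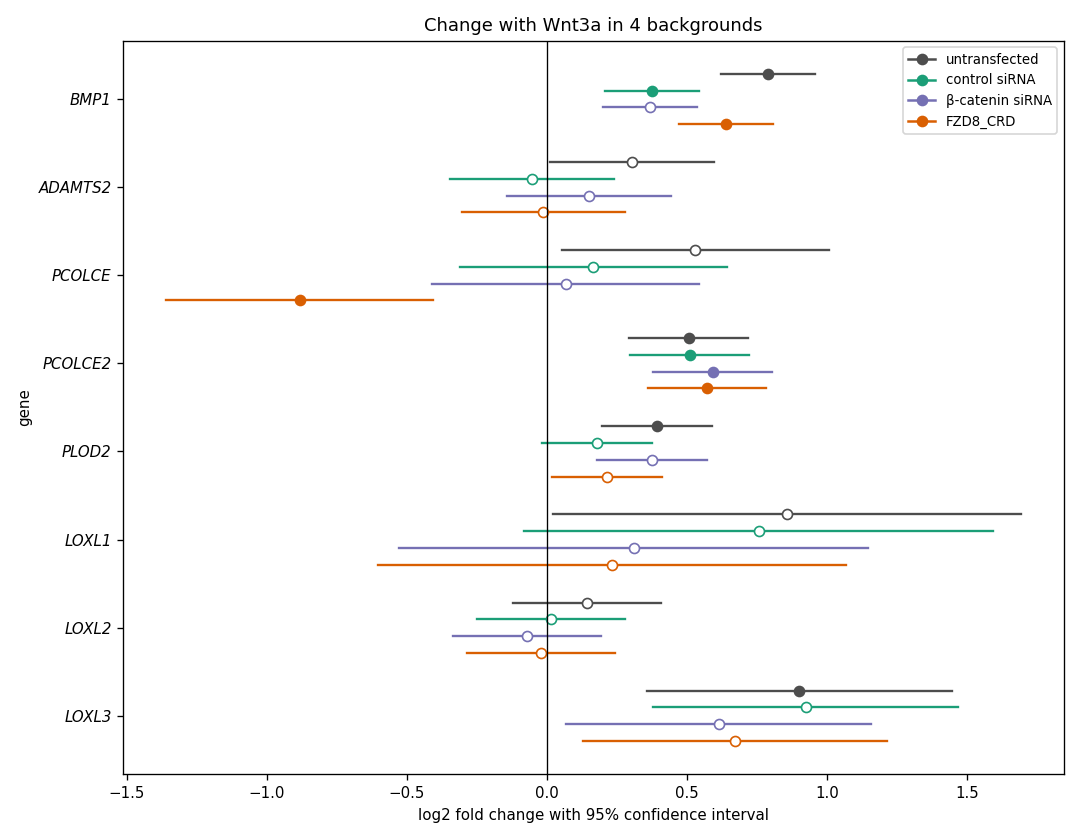
Log2 fold change with Wnt3a (horizontal axis) of the 8 members in untransfected cells, after control siRNA, with β-catenin siRNA and with FZD8_CRD, with 95% confidence intervals from limma and 3 arrays in each condition. Filled points were called at an adjusted p under 0.05, and the change of LOXL1 in untransfected cells rests on the floor.

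The plot of the Wnt3a changes shows PCOLCE2 at nearly the same value in the 4 backgrounds. PCOLCE2 encodes the second procollagen C-proteinase enhancer, a paralogue of PCOLCE. Without Wnt3a its log2 signal was 3.08, 3.02 and 2.91 in untransfected cells, 3.33, 3.30 and 3.25 after control siRNA, 3.02, 3.05 and 2.97 with β-catenin siRNA and 3.16, 3.16 and 3.48 with FZD8_CRD. With Wnt3a the values were 3.51, 3.78 and 3.24 in untransfected cells, 3.79, 3.83 and 3.79 after control siRNA, 3.69, 3.61 and 3.51 with β-catenin siRNA and 3.88, 3.87 and 3.77 with FZD8_CRD. In each background the arrays with Wnt3a lay above those without. In order, FZD8_CRD and control siRNA with Wnt3a overlapped at the top (3.84 ± 0.06 and 3.80 ± 0.02, SD, n = 3), followed by β-catenin siRNA with Wnt3a, untransfected with Wnt3a, control siRNA and FZD8_CRD, each overlapping the next, and by β-catenin siRNA and untransfected cells, which overlapped (3.01 ± 0.04 and 3.00 ± 0.09).

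Wnt3a raised PCOLCE2 by 0.51 in untransfected cells (standard error 0.10, adjusted p = 0.00877), by 0.51 after control siRNA (adjusted p = 0.0138), by 0.59 after β-catenin siRNA (adjusted p = 0.0472) and by 0.57 with FZD8_CRD (adjusted p = 0.00233). The tested differences were 0.08 for β-catenin siRNA (95% interval -0.22 to 0.38) and 0.07 for FZD8_CRD (-0.23 to 0.37), and neither was called. In untransfected cells the rise of PCOLCE2 was 0.37 without Wnt3a-treated array 2 (adjusted p = 0.0711, range over 21 alternatives 0.000464 to 0.74). After control siRNA the adjusted p was 0.057 and 0.0724 without array 1 and 3 of control siRNA, and 0.0738 and 0.0521 without array 2 and 3 of control siRNA with Wnt3a (changes of 0.49 to 0.53; range 0.00681 to 0.571). After β-catenin siRNA the call was lost without any 1 of the 6 arrays, with an adjusted p of 0.195, 0.104 and 0.224 without array 1, 2 and 3 of β-catenin siRNA and 0.211, 0.186 and 0.0759 without those with Wnt3a (range 0.00942 to 1), while the change stayed between 0.55 and 0.64. With FZD8_CRD the call held without any 1 array, but it was lost with the spike-ins (0.48, adjusted p = 0.842) and with the thresholds of the study. It was also lost when only the conditions compared were fitted (0.57, adjusted p = 0.205). Without replicate 1 and 2 the adjusted p was 0.438 and 0.27, with changes of 0.50 and 0.504.

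PCOLCE2 also rose by 0.29 after control siRNA without Wnt3a (adjusted p = 0.0466), a call lost without any 1 of the 6 arrays. The adjusted p was 0.065, 0.0879 and 0.138 without array 1, 2 and 3 of untransfected cells and 0.127, 0.105 and 0.0728 without those of control siRNA (range over 21 alternatives 0.0183 to 0.994), while the change stayed between 0.24 and 0.33. With Wnt3a the change after control siRNA was 0.29 (adjusted p = 0.0773), and it was 0.43 without array 2 of Wnt3a-treated untransfected cells (adjusted p = 0.00336, range 0.00336 to 0.444). FZD8_CRD raised PCOLCE2 by 0.26 without Wnt3a (adjusted p = 0.044), which was lost without array 2 or 3 of untransfected cells (0.27 and 0.22, adjusted p = 0.0773 and 0.142) and without array 3 of FZD8_CRD (0.16, adjusted p = 0.233; range 0.0316 to 0.71). In the presence of Wnt3a the rise with FZD8_CRD was 0.33 (adjusted p = 0.0151), with groups that overlapped, and was lost without array 1 of FZD8_CRD with Wnt3a (0.31, adjusted p = 0.0512) and array 3 of Wnt3a-treated untransfected cells (0.19, adjusted p = 0.116; range 0.000571 to 0.621).

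PLOD2, the lysyl hydroxylase of collagen telopeptides, gave log2 signals without Wnt3a of 4.75, 4.65 and 4.40 in untransfected cells, 4.69, 4.73 and 4.83 after control siRNA, 4.56, 4.63 and 4.53 with β-catenin siRNA and 4.73, 4.79 and 4.86 with FZD8_CRD. With Wnt3a the values were 5.06, 5.18 and 4.74 in untransfected cells, and between 4.83 and 5.03 on the 9 arrays of the other backgrounds. The 2 highest arrays were those numbered 1 and 2 of untransfected cells with Wnt3a, whose array 3 overlapped the cells without Wnt3a, and in the other 3 backgrounds the groups did not overlap. All neighbours overlapped in the order of the 8 means, which ran from 5.01 ± 0.03 (SD, n = 3) with FZD8_CRD and Wnt3a to 4.57 ± 0.05 after β-catenin siRNA. PLOD2 rose by 0.39 with Wnt3a in untransfected cells (standard error 0.09, adjusted p = 0.0207, higher on 3 of 3 slides), and in no other comparison was it called. The changes with Wnt3a were 0.18 after control siRNA (adjusted p = 0.428), 0.38 after β-catenin siRNA (adjusted p = 0.18) and 0.21 with FZD8_CRD (adjusted p = 0.195). Without replicate 3 the last 2 were called, at 0.42 (adjusted p = 0.0247) and 0.245 (adjusted p = 0.0172). The call in untransfected cells was lost without array 2 or 3 of untransfected cells (0.0537 and 0.0511) and without Wnt3a-treated array 1 or 2 (0.0573 and 0.177; changes of 0.29 to 0.42, range over 21 alternatives 0.00135 to 0.993). FZD8_CRD without Wnt3a gave 0.19 (adjusted p = 0.108), and 0.27 without array 1 of untransfected cells (adjusted p = 0.0462, range 0.0462 to 0.561).

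Over the 24 arrays, which share conditions and slides, PLOD2 followed PCOLCE2 more closely than any other of the 14649 genes compared (Pearson r = 0.884, a description without a test). Promoter windows of 250 bases before the transcription start, from RefSeq on GRCh38.p14, were found for 8 of the 10 members (11 windows), and those of PCOLCE2 and PLOD2 are shown because they had the highest r of the pairs with windows. BMP1 had a higher r with PCOLCE2 (0.903), but no window was found for BMP1. The letters ACGTG, or CACGT on the other strand, which form the core of sites bound by hypoxia-inducible factors, were searched, together with CTTTGA, which reads TCAAAG on the other strand, and CTTTGT, which reads ACAAAG there, both cores of sites bound by TCF and LEF proteins. ACGTG or CACGT was found in the windows of 2 members, PLOD2 and LOX, and in 18.5% of all 35116 windows of this length. CTTTGA was found in 0 members and in 11.2% of all windows, and CTTTGT in 0 members and in 13.7%. The window of PCOLCE2 is chr3:142889084-142889333 and that of PLOD2 chr3:146161185-146161434, both on the minus strand and written 5′ to 3′, with capitals for ACGTG or CACGT, which the window of PCOLCE2 does not hold.
PCOLCE2: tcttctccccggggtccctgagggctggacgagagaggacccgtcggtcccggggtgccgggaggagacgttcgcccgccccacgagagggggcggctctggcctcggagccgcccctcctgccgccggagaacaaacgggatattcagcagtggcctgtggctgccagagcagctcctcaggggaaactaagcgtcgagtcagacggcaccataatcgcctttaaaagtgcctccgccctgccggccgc
PLOD2: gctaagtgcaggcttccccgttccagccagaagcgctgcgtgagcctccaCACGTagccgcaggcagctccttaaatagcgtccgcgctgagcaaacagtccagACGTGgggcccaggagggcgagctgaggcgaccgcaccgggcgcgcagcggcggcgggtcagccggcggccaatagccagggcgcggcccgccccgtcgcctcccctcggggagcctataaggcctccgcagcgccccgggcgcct

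Of the lysyl oxidases, LOX, the founding member of the family, and LOXL4 stood well above background on 0 of the 24 arrays and were not tested. LOX was spotted 10 times on each array. The other members of the family gave low signals but passed the filter, LOXL2 and LOXL3 on all 24 arrays and LOXL1 on 19. A second probe of LOXL3 was well above background on 2 arrays only and was not kept.

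LOXL1 encodes the oxidase best known for cross-linking elastin. In untransfected cells without Wnt3a none of its 3 signals stood well above background. After control siRNA its log2 signal was -4.89, -4.56 and -4.57, after β-catenin siRNA -5.35, -5.45 and -5.96, and with FZD8_CRD -3.73, -3.38 and -3.70. With Wnt3a it was -5.93, -3.77 and the floor of -6.13 in untransfected cells, -3.97, -3.64 and -4.15 after control siRNA, -4.89, -5.71 and -5.23 with β-catenin siRNA, and -3.09, -3.48 and -3.55 with FZD8_CRD. The 2 means with FZD8_CRD were the highest, and array 2 of Wnt3a-treated untransfected cells stood far above the other 2 of its condition. In the order of the means, FZD8_CRD overlapped FZD8_CRD with Wnt3a above it and control siRNA with Wnt3a below it, and next came control siRNA, untransfected with Wnt3a and β-catenin siRNA with and without Wnt3a, each overlapping its neighbour. Where the dimmer group is not well above background a change is given as a lower bound, the mean of the brighter group over the mean, per array, of the lowest signal among probes well above background or the probe's own signal if higher.

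In untransfected cells without Wnt3a, LOXL1 lay on the floor on all 3 arrays. Relative to them, the bound for the processed signal was 5.54-fold higher with FZD8_CRD (adjusted p = 4.67e-05) and 2.63-fold higher after control siRNA (adjusted p = 0.0122), on 3 of 3 slides each. The p-values are from the limma fit of the floored values, in which the untransfected arrays had no spread. Neither bound is a minimum under every background correction. The fitted log2 change ran from 0.98 with normexp to 3.91 with the value table of the authors for FZD8_CRD, and from 0.565 to 2.73 for control siRNA. The call with FZD8_CRD held in all 20 alternatives (adjusted p 4.04e-06 to 0.00677). That after control siRNA was lost when scaled to the spike-ins (adjusted p = 0.0978) and without replicate 1 (0.151) or 3 (0.0676). With Wnt3a in untransfected cells LOXL1 stood well above background on 2 of the 3 arrays, far above only on array 2, and was not called (adjusted p = 0.223). It was called without array 3 of the Wnt3a-treated cells (adjusted p = 0.0417), with the value table of the authors (0.0421) and with a floor of 1 intensity unit (0.0473), and without array 2 the adjusted p was 0.937 (range over 20 alternatives 0.0417 to 1). In the presence of Wnt3a, FZD8_CRD raised LOXL1 by 1.91 (standard error 0.40, adjusted p = 0.00089; range 3.75e-07 to 0.103, with changes of 0.72 to 2.71), against a group in which array 3 lay on the floor. Without array 2 of that group the fitted change was 2.66 (adjusted p = 3.75e-07), with 1 of its 2 other arrays on the floor.

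Control siRNA raised LOXL1 by 1.36 in the presence of Wnt3a (standard error 0.40, adjusted p = 0.0389), against the same group, which it overlapped. Without array 2 of that group the fitted change was 2.11 (adjusted p = 4.85e-05), with the same limit. The call was lost without array 1 or 3 of Wnt3a-treated untransfected cells (adjusted p = 0.235 and 0.183) and without array 1, 2 or 3 of control siRNA with Wnt3a (adjusted p = 0.0675, 0.165 and 0.0729; changes of 0.93 to 1.47 in all, range over 20 alternatives 4.85e-05 to 0.46). Against control siRNA, LOXL1 fell by 1.36 with β-catenin siRNA in the presence of Wnt3a (standard error 0.40, adjusted p = 0.033), to a group with 2 of 3 arrays well above background. That call was lost without array 1, 2 or 3 of control siRNA with Wnt3a (adjusted p = 0.0764, 0.123 and 0.0541) and without array 2 or 3 of β-catenin siRNA with Wnt3a (0.158 and 0.0799; changes of -1.47 to -1.14, range 0.021 to 0.169). Without Wnt3a the change of LOXL1 with β-catenin siRNA was -0.91 (adjusted p = 0.173).

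LOXL3, an oxidase of collagen and fibronectin-rich matrix in development, gave log2 signals of -4.91, -4.87 and -4.87 in untransfected cells, -3.53, -4.08 and -3.92 after control siRNA, -4.37, -4.00 and -4.72 with β-catenin siRNA and -3.61, -3.54 and -3.84 with FZD8_CRD. With Wnt3a the signals were -4.10, -3.26 and -4.59 in untransfected cells, -3.11, -2.85 and -2.80 after control siRNA, -3.65, -3.59 and -4.00 with β-catenin siRNA and -2.74, -2.85 and -3.38 with FZD8_CRD. Untransfected cells without Wnt3a were lowest and did not overlap any other condition. The means of control siRNA and FZD8_CRD with Wnt3a were highest and overlapped, and the 5 conditions between overlapped their neighbours.

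LOXL3 rose by 0.90 with Wnt3a in untransfected cells (standard error 0.26, adjusted p = 0.0477). This call was lost without 5 of the 6 arrays, with an adjusted p of 0.137, 0.126 and 0.0551 without array 1, 2 and 3 of untransfected cells, 0.0668 without Wnt3a-treated array 1, and 0.365 without Wnt3a-treated array 2, when the change was 0.54, beside 0.89 to 0.96 without the others (range over 21 alternatives 0.00569 to 0.944). After control siRNA the change of LOXL3 with Wnt3a was 0.92 (adjusted p = 0.0698), which was called when the slide was fitted as a replicate block (adjusted p = 0.0243), when only the conditions compared were fitted (0.0408) and with the thresholds of the study (range over 21 alternatives 0.0243 to 0.473). After β-catenin siRNA the change was 0.61 (adjusted p = 0.408) and with FZD8_CRD 0.67 (adjusted p = 0.129), neither called. Control siRNA raised LOXL3 by 1.04 without Wnt3a (adjusted p = 0.00662) and by 1.06 with Wnt3a (adjusted p = 0.0155). The former was lost with normexp (0.37, adjusted p = 0.0566), with the spike-ins (0.76, adjusted p = 0.203) and without replicate 1 (0.87, adjusted p = 0.24). The latter was lost without array 1 or 3 of Wnt3a-treated untransfected cells (0.0923 and 0.0816) and without array 2 or 3 of control siRNA with Wnt3a (0.0803 and 0.0621; changes of 0.76 to 1.03, range 0.000434 to 0.241). FZD8_CRD raised LOXL3 by 1.22 without Wnt3a (adjusted p = 0.000823) and by 0.99 with Wnt3a (adjusted p = 0.00514), the second with overlapping groups. Both calls were lost with the spike-ins (0.83 and 0.91, adjusted p = 0.0678 and 0.101). The second was also lost when only the conditions compared were fitted (adjusted p = 0.0765) and without replicate 1 (0.81, adjusted p = 0.176).

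Against control siRNA, LOXL3 fell by 0.83 with β-catenin siRNA in the presence of Wnt3a (standard error 0.26, adjusted p = 0.0472), and the change without Wnt3a was -0.52 (adjusted p = 0.25). The call with Wnt3a was lost without any 1 of the 6 arrays, with an adjusted p of 0.0639, 0.128 and 0.14 without array 1, 2 and 3 of control siRNA and 0.076, 0.0792 and 0.182 without those of β-catenin siRNA (changes of -0.92 to -0.70; range over 21 alternatives 0.0149 to 0.221).

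LOXL2 encodes the oxidase that cross-links type IV and fibrillar collagens and has been studied as a target in liver fibrosis. Its log2 signal was -4.06, -3.98 and -4.12 with FZD8_CRD and -4.08, -4.02 and -4.13 with FZD8_CRD and Wnt3a. In untransfected cells it was -3.55, -3.24 and -3.12 without and -3.06, -3.07 and -3.35 with Wnt3a. On the 12 arrays with an siRNA it lay between -3.35 and -3.07. The 6 arrays with FZD8_CRD were thus the lowest of the 24 and overlapped none of the others, while the other 6 conditions overlapped their neighbours in order. LOXL2 fell by 0.75 with FZD8_CRD without Wnt3a (standard error 0.13, adjusted p = 8.88e-05) and by 0.92 with Wnt3a (adjusted p = 1.82e-05), to 0.593 and 0.53 of the level in the untransfected cells compared. Both calls of LOXL2 held in all 21 alternatives, with an adjusted p of at most 0.0231 and 0.0125. The size of the fall was less certain, as the log2 change ran from -1.14 with the spike-ins to -0.40 with normexp, and in the presence of Wnt3a from -1.01 to -0.48. The 4 changes of LOXL2 with Wnt3a lay between -0.07 and 0.14, and none was called.

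**Figure D3:**
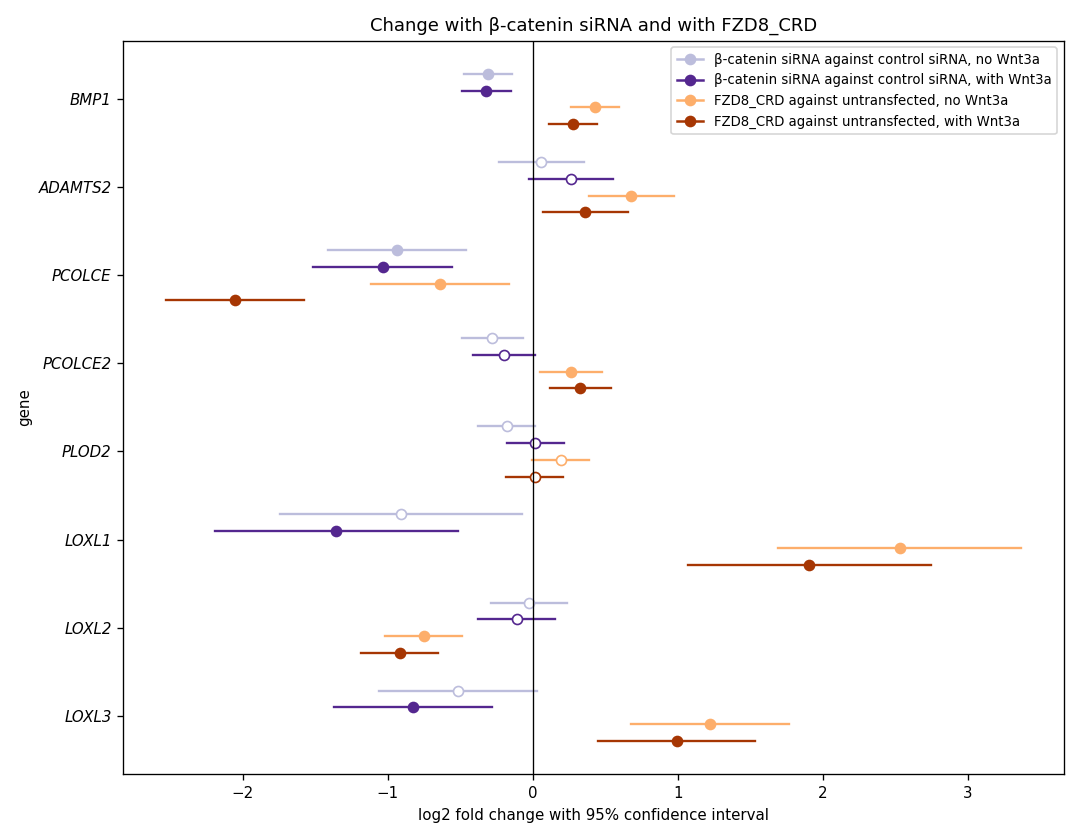
Log2 fold change (horizontal axis) of the 8 members with β-catenin siRNA against control siRNA and with FZD8_CRD against untransfected cells, without and with Wnt3a, with 95% confidence intervals from limma and 3 arrays in each condition. Filled points were called at an adjusted p under 0.05, and the change of LOXL1 with FZD8_CRD without Wnt3a rests on the floor.

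The plot of the inhibitor changes sets BMP1, PCOLCE2, LOXL1 and LOXL3 below 0 for β-catenin siRNA and above 0 for FZD8_CRD. Of these 4, BMP1 was called in all 4 comparisons. PCOLCE2 was not called for β-catenin siRNA (-0.28 without and -0.20 with Wnt3a, adjusted p = 0.0872 and 0.268). Without Wnt3a it was called when only the conditions compared were fitted (adjusted p = 0.00829) and without replicate 3 (adjusted p = 0.0317). PCOLCE lay below 0 with both. The difference between the inhibitors was not tested, and they were compared with different control groups.

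Among the members, the highest correlation over the 24 arrays was that of BMP1 with PCOLCE2 (Pearson r = 0.903), and the lowest that of LOXL1 with LOXL2 (r = -0.589). PCOLCE correlated with LOXL2 (r = 0.723) and was near 0 with BMP1 (r = -0.05), and LOXL3 followed PCOLCE2 (r = 0.857) and LOXL1 (r = 0.847). These values are descriptions over arrays that share 8 conditions. Of all genes with a symbol and a signal well above background on all 24 arrays, BMP1 was most like CHPF2 (r = 0.937), PACSIN2 and MED15, and PCOLCE2 most like CHPF2 (r = 0.932), SCG5 and CHPF, where CHPF and CHPF2 encode chondroitin polymerising factors. PCOLCE was most like ANGPT1 (r = 0.939), POM121L8P and SREBF1, and PLOD2, after PCOLCE2, most like CAMK1D (r = 0.843) and SAMD9L. For LOXL1 the 3 genes were TBCB (r = 0.949), B4GALT2 and DLL3, though LOXL1 itself was well above background on 19 arrays and lay on the floor on 4, for LOXL2 LINC00475 (r = 0.946), OGG1 and CACNB2, for LOXL3 RIN1 (r = 0.94), DOK1 and BCL11B, and for ADAMTS2 MRM2 (r = 0.885), XPNPEP1 and NELFCD.

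The substrates and partners of the members give the setting of these changes. Of 11 fibrillar collagens, 9 were tested, and 5 rose with Wnt3a in untransfected cells, 5 after control siRNA, 0 with β-catenin siRNA and 3 with FZD8_CRD, while 0 fell (median change 0.60, 0.63, 0.04 and 0.38, beside at most 0.03 for all genes). Control siRNA lowered 6 of the 9 without Wnt3a and 3 with Wnt3a, FZD8_CRD lowered 6 and 5, and none rose, where BMP1 rose. The shares of all genes called were 5.6%, 2.11%, 0.0406% and 8.29% for Wnt3a in the 4 backgrounds, and without and with Wnt3a 22.3% and 9.04% for control siRNA, 10.6% and 10.6% for β-catenin siRNA, and 41.9% and 37.2% for FZD8_CRD, and the counts of the lists are to be read beside them. COL3A1, the chain of type III collagen, fell by 2.82 with FZD8_CRD without Wnt3a (adjusted p = 1.08e-07), and COL27A1 fell by 1.60 (adjusted p = 2.76e-06). With β-catenin siRNA 0 of the 9 were called without Wnt3a, and 4 fell with Wnt3a, among them COL1A1 (-1.47, adjusted p = 0.00579).

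Of 15 partners of elastic fibres and fibrils, on which lysyl oxidases act or which regulate fibril growth, 14 were tested. With Wnt3a 5 rose in untransfected cells, 3 after control siRNA, 0 with β-catenin siRNA and 5 with FZD8_CRD, where 1 fell. With β-catenin siRNA 7 fell without Wnt3a and 8 with Wnt3a, and 0 rose, and among them the small proteoglycan genes DCN (-1.504 and -1.80, adjusted p = 2.49e-05 and 1.94e-06) and LUM (-1.02 and -1.62, adjusted p = 0.00132 and 9.1e-06). With FZD8_CRD 5 of the 14 fell in each case, and 0 and 2 rose, where 41.9% and 37.2% of all genes were called, and EFEMP2, which encodes a fibulin that tethers lysyl oxidase to elastic fibres, fell by 1.49 without Wnt3a (adjusted p = 4.3e-07) and by 1.61 with Wnt3a (adjusted p = 3.73e-07). Control siRNA raised 2 and lowered 1 without Wnt3a, and lowered 1, DCN, with Wnt3a.

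Of the enzymes that act before secretion, the 10 listed for prolyl hydroxylation were all tested. With Wnt3a 1 rose in untransfected cells, 1 rose and 1 fell after control siRNA, 0 changed after β-catenin siRNA, and 2 rose and 1 fell with FZD8_CRD. P4HA2, a catalytic subunit of prolyl 4-hydroxylase, rose by 0.75 with Wnt3a in untransfected cells (adjusted p = 0.013) and by 0.88 with Wnt3a under FZD8_CRD (adjusted p = 0.00327). Against untransfected cells without Wnt3a it rose by 0.76 after control siRNA (adjusted p = 0.00266) and by 0.73 with FZD8_CRD (adjusted p = 0.00147). Control siRNA raised 1 with and without Wnt3a, β-catenin siRNA lowered 3 in each case, and FZD8_CRD raised 1 and lowered 2 without Wnt3a, and raised 2 and lowered 1 with it. Of 4 genes for lysyl hydroxylation and glycosylation, 0 were called for Wnt3a in untransfected cells or after either siRNA, and PLOD1, a paralogue of PLOD2, rose by 0.61 with Wnt3a under FZD8_CRD (adjusted p = 0.00669). COLGALT1, a collagen galactosyltransferase, rose by 0.57 after control siRNA (adjusted p = 0.00476) and by 0.79 with FZD8_CRD (adjusted p = 0.000104), each 1 of 2 that rose. In the presence of Wnt3a it was the 1 gene that rose in both comparisons, and β-catenin siRNA raised 1 and lowered 1 without Wnt3a and changed 0 with it.

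All 8 genes for procollagen chaperones and export were tested. With Wnt3a 1 rose in untransfected cells, SERPINH1, which encodes the collagen chaperone HSP47 (0.66, adjusted p = 0.0108), 1 after control siRNA, 0 with β-catenin siRNA and 4 with FZD8_CRD. Control siRNA changed 0 of them, β-catenin siRNA lowered 3 in each case, among them CREB3L1 (-0.60 without and -0.93 with Wnt3a, adjusted p = 0.0304 and 0.00112), a transcription factor of collagen synthesis, and FZD8_CRD raised 3 and lowered 1 without Wnt3a (41.9% of all genes called) and raised 3 with it (37.2%). Of 6 other procollagen proteinases, ADAMTS3 and TLL1, relatives of ADAMTS2 and BMP1, were tested. TLL1 rose by 1.24 with Wnt3a under FZD8_CRD (adjusted p = 0.0283) and by 1.37 with FZD8_CRD in the presence of Wnt3a (adjusted p = 0.00344), and by 0.86 without it (adjusted p = 0.0497). ADAMTS3 rose by 0.43 after control siRNA (adjusted p = 0.0136), and the other comparisons of the 8 conditions called neither.

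PLOD2 and LOX are known targets of hypoxia-inducible factors, and 12 of 12 other hypoxia-induced genes were tested. With Wnt3a 1 rose in untransfected cells, PFKFB4 (0.52, adjusted p = 0.0489), and 0 were called after either siRNA, while 1 rose and 1 fell with FZD8_CRD. After control siRNA 8 fell without Wnt3a, and 6 fell and 1 rose with Wnt3a. With FZD8_CRD, where 41.9% of all genes were called without and 37.2% with Wnt3a, 7 fell without Wnt3a, among them CA9 (-2.11, adjusted p = 1.17e-05) and VEGFA (-1.79, adjusted p = 2.84e-06), and 6 fell and 1 rose with Wnt3a. PLOD2 was not called in any of these 4 comparisons. β-catenin siRNA raised 1 without Wnt3a and changed 0 with it.

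Of 10 Wnt feedback genes, which β-catenin with TCF and LEF proteins is known to switch on, 8 were tested. With Wnt3a 4 rose in untransfected cells, 4 after control siRNA and 0 with β-catenin siRNA, and 2 rose and 1 fell with FZD8_CRD. TCF7 rose with Wnt3a by 1.68 in untransfected cells (adjusted p = 0.00109) and by 1.64 under FZD8_CRD (adjusted p = 0.00109). RNF43 rose by 0.73 and 0.81 (adjusted p = 0.00054 and 0.000217). LEF1 and AXIN2 rose in untransfected cells (1.12 and 0.37, adjusted p = 0.000392 and 0.0453) but were not called under FZD8_CRD. There APCDD1 fell by 1.54 with Wnt3a (adjusted p = 0.0111). The median change of the list with Wnt3a was 0.33 in untransfected cells and 0.08 under FZD8_CRD. β-catenin siRNA lowered 4 without and 6 with Wnt3a, among them RNF43 (-1.90 with Wnt3a, adjusted p = 5.66e-10). FZD8_CRD raised 2 and lowered 3 without Wnt3a and lowered 3 with it, and control siRNA raised 1 and lowered 1 without Wnt3a and changed 0 with it. Of all 8 lists, the test of the difference in the Wnt3a response called 1 Wnt feedback gene for β-catenin siRNA and 1 fibril partner for FZD8_CRD, and 0 in the other lists. The counts of the lists were not recomputed without single arrays.

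**Figure D4:**
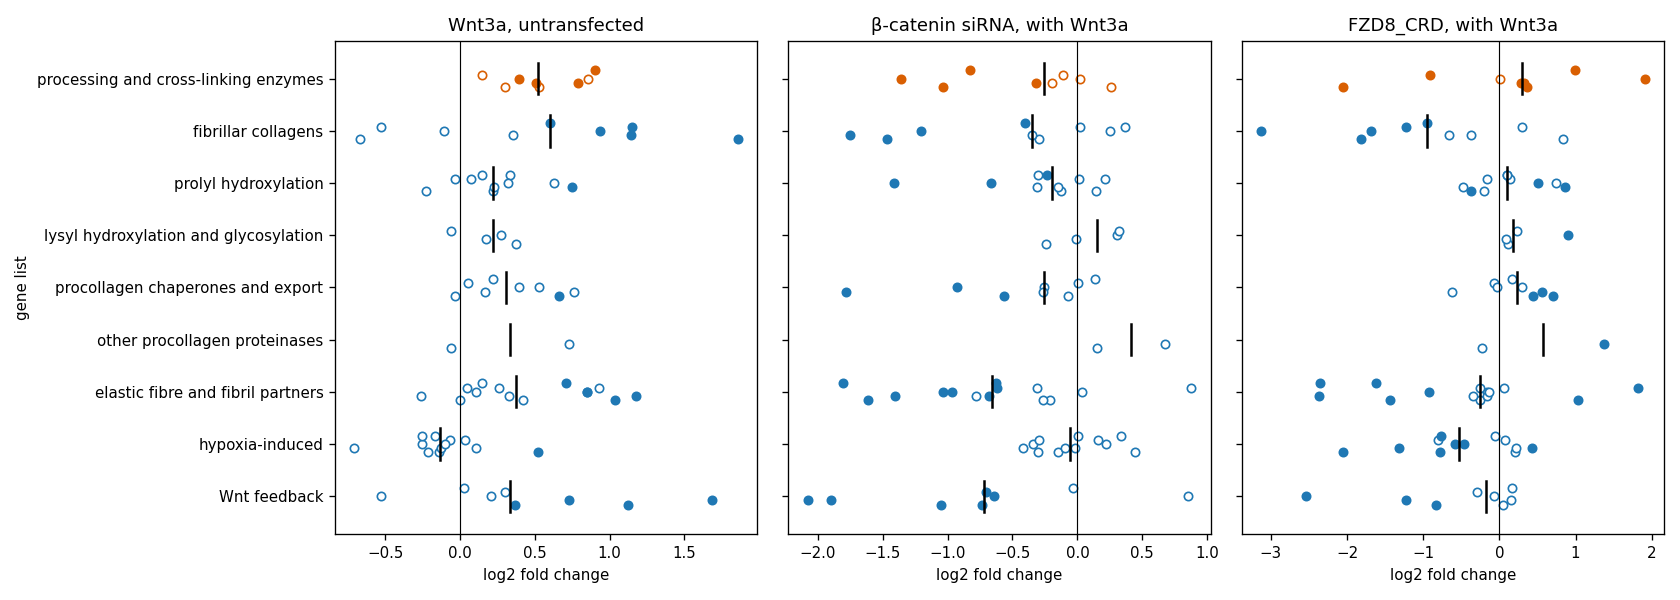
Log2 fold change (horizontal axis) of each tested gene of the members and the 8 gene lists (vertical axis) with Wnt3a in untransfected cells, with β-catenin siRNA in the presence of Wnt3a and with FZD8_CRD in the presence of Wnt3a. Points are genes, filled where called at an adjusted p under 0.05, and vertical bars are the medians of the lists.

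The plot of the lists places the members beside the genes they act with. With FZD8_CRD and Wnt3a the median of the members was 0.30 and that of the fibrillar collagens -0.95, and the median of all genes was -0.08. With β-catenin siRNA and Wnt3a they were -0.26 and -0.35, beside -0.01 for all genes.

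Markers of cell types moved with several of these comparisons. The summed signal of 6 hepatocyte markers, of which ALB was brightest, in multiples of the 75th percentile of the array, was 1060 ± 315 (SD, n = 3) in untransfected cells, 379 ± 16.7 after control siRNA, 547 ± 75 with β-catenin siRNA and 320 ± 69.4 with FZD8_CRD. With Wnt3a it was 709 ± 281, 236 ± 40.3, 381 ± 101 and 385 ± 8.15. The sums of single arrays overlapped between untransfected cells without and with Wnt3a (746 to 1380 and 385 to 873). BMP1, ADAMTS2, LOXL1, LOXL3 and PCOLCE2 had their lowest mean in the condition with the highest mean hepatocyte marker signal, where PCOLCE2 overlapped β-catenin siRNA. PCOLCE and LOXL2 were lowest with FZD8_CRD and Wnt3a, and PLOD2 after β-catenin siRNA. Of 6 fibroblast and stellate markers 5 were tested, with ACTA2 brightest and a sum of 10.3 ± 0.592 in untransfected cells, 11.5 ± 0.4 after control siRNA, 10.2 ± 0.485 with β-catenin siRNA and 12.6 ± 0.223 with FZD8_CRD. With Wnt3a this sum was 12.4 ± 0.772, 12.5 ± 0.301, 10.9 ± 0.254 and 15.2 ± 0.315. Over the 5 markers as single genes, the median change was -0.14 for Wnt3a in untransfected cells (1 rose, 0 fell) and, for FZD8_CRD, -0.16 without and 0.04 with Wnt3a (2 rose and 1 fell in each). With β-catenin siRNA, where BMP1 and PCOLCE fell, 3 of the 5 fell without Wnt3a (median -0.79) and 2 with Wnt3a (median -0.32), and 0 rose. Of the 6 listed fibroblast and stellate markers, THY1 stood well above background on 0 arrays and PDGFRB on 7, while ACTA2 was the brightest. The part of these markers in the changes of the members was not tested.

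Of 4 biliary and progenitor markers 3 were tested, with KRT19 brightest, and their sum lay between 250 ± 26.5 and 370 ± 22 over the conditions, highest with FZD8_CRD and Wnt3a, while EPCAM was well above background on 1 array. As single genes, 1 of the 3 rose and 1 fell with FZD8_CRD, both without Wnt3a (median -0.26) and with it (median -0.15). The 3 endothelial markers summed to between 0.172 and 0.245, with CDH5 brightest. Of 3 leukocyte markers 2 were tested, with CD68 brightest, and their sum lay between 1.43 with FZD8_CRD and 3.63 in untransfected cells with Wnt3a. The hepatocyte markers, which HepaRG cells express as a hepatic line, fell in 5 of 6 cases after control siRNA and with FZD8_CRD, both without Wnt3a, and 1 rose with FZD8_CRD. In the presence of Wnt3a 2 of the 6 fell after control siRNA, and 3 fell and 1 rose with FZD8_CRD, and Wnt3a under FZD8_CRD raised 3 (median 0.54).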

How the data were processed

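RNA of 24 HepaRG cultures was measured on Agilent one-colour arrays of 62976 spots. The intensity of each spot is the processed signal that the authors deposited from Agilent Feature Extraction (version 10.7.3.1 in the submitters' processing notes, 10.7.1.1 per the file headers). The log2 values of the deposited value table, relative to the 75th percentile and centred per probe by the authors, were used as an alternative only. Here each intensity was divided by the 75th percentile of the non-control spots of its array and taken as log2, outlier spots were left out, and spots of a probe were averaged. The filter kept the 31067 probes that were well above background in every replicate of some condition, and the kept probe with the highest mean stood for its gene. The limma package (3.58.1, R 4.3.3) fitted a model of 8 condition means (empirical Bayes with trend, 16 residual degrees of freedom, Benjamini-Hochberg adjustment over 24648 genes, two-sided, 12 comparisons). Tables and figures were made with Python 3.11.15, numpy 2.4.6, pandas 2.3.3, scipy 1.17.1 and matplotlib 3.10.9.

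Named were the 10 members in every comparison, CTNNB1, of each list at most 4 called genes per comparison with the smallest adjusted p, and for each member the 3 genes with the highest Pearson r. The 8 arrays of a replicate number shared a slide per the file headers, and 82 of their 84 pairs had a correlation above 0.1 once condition means were removed (mean 0.384, beside -0.191 for other pairs). The slide was fitted as a block in an alternative only. The members and lists were chosen with earlier results of these data known. Alternatives changed the scaling, background correction, filter, floor, outlier spots, choice of probe, arrays in the fit, replicate block, source of the values, thresholds and arrays left out.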

Additional observations from a re-analysis of the deposited data

How the results depend on the processing

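Of the 38 calls of members, 33 were kept with quantile normalization, 31 with normexp background correction, 28 with no filter, 32 with the deposited value table, 20 when only the conditions compared were fitted and 22 with the study's thresholds. PCOLCE with FZD8_CRD and Wnt3a, LOXL1 with FZD8_CRD alone and LOXL2 with FZD8_CRD in both cases kept their calls in every alternative. LOXL1 dropped out with a filter on all 24 arrays, and 33 of the 33 other calls were kept. Normexp was run on the median signal. Low signals limit LOXL1, LOXL2 and LOXL3 most. Where a lone array was left in a group, or a pair, its spread was assumed to be that of the other groups.

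Scaled to the spike-ins, 8 of 38 calls were kept, and 2 had values slightly below 0 that showed no direction, PCOLCE2 with FZD8_CRD (-0.129, adjusted p = 0.71) and PLOD2 with Wnt3a in untransfected cells (-0.003, adjusted p = 0.993). Of the 30 lost calls 22 had smaller changes, among them BMP1 with FZD8_CRD (0.04 in place of 0.43), PCOLCE2 after control siRNA (0.004 in place of 0.288) and with Wnt3a in untransfected cells (0.111 in place of 0.506), and ADAMTS2 after control siRNA (0.245 in place of 0.529). The other 8 had larger changes, among them BMP1 with Wnt3a after control siRNA (0.536 in place of 0.375) and, for control siRNA with Wnt3a, LOXL1 (1.627 in place of 1.356) and LOXL3 (1.333 in place of 1.062). Members called were then 0 for Wnt3a in untransfected cells (main 4), after control siRNA (2), after β-catenin siRNA (1) and with FZD8_CRD (3). They were 0 for control siRNA without (5) and with Wnt3a (3) and for β-catenin siRNA without Wnt3a (2), 2 for β-catenin siRNA with Wnt3a (4), and 3 for FZD8_CRD without and 3 with Wnt3a (7 each). When only the conditions compared were fitted, with fewer arrays to estimate the spread, 0 members were called for Wnt3a in untransfected cells, 0 after β-catenin siRNA, 0 with FZD8_CRD and 0 for control siRNA with Wnt3a, 4 for β-catenin siRNA without Wnt3a and 2 for FZD8_CRD with Wnt3a. With the study's thresholds the counts were 2 for Wnt3a in untransfected cells, 1 after control siRNA (LOXL3, gained, while BMP1 and PCOLCE2 were lost), 3 for control siRNA without Wnt3a, 1 for β-catenin siRNA without Wnt3a, 4 for FZD8_CRD without and 4 with Wnt3a, and 1 for the difference with FZD8_CRD. With no filter, and with the deposited value table, they were 0 for Wnt3a after β-catenin siRNA and 2 for β-catenin siRNA with Wnt3a. Normexp gave 3 for control siRNA without Wnt3a and 2 for β-catenin siRNA with Wnt3a, and quantile normalization 2 for the latter. The causes of these differences between settings were not tested.

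Leaving out a replicate number or a single array gave 0 to 5 members for Wnt3a in untransfected cells, 0 to 2 after control siRNA, 0 to 2 after β-catenin siRNA and 0 to 4 with FZD8_CRD. For control siRNA it gave 1 to 5 without and 0 to 4 with Wnt3a, for β-catenin siRNA 0 to 3 and 0 to 3, for FZD8_CRD 4 to 8 and 2 to 7, and for the differences 0 to 0 (β-catenin siRNA) and 0 to 1 (FZD8_CRD). The number of all genes called moved too, though not always in the same direction as the member count. For Wnt3a it went from 6 to 6344 in untransfected cells, 4 to 574 after control siRNA, 0 to 96 after β-catenin siRNA and 0 to 5328 with FZD8_CRD. It ran from 233 to 6876 and 1 to 4045 for control siRNA, 474 to 2374 and 588 to 2646 for β-catenin siRNA, 6215 to 11229 and 4107 to 10126 for FZD8_CRD, and 0 to 11 and 0 to 2989 for the differences. CTNNB1 changed by -3.104 to -2.977 without and by -3.131 to -2.913 with Wnt3a.

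With a replicate block for the shared slide, all 38 calls were kept, and the counts were 4, 3, 1 and 3 for Wnt3a in the 4 backgrounds, since LOXL3 after control siRNA was also called (0.92, adjusted p = 0.0243, in place of 0.0698). No other call of a member changed. The all-gene counts were higher with the block, 2823, 1073, 42 and 3298 for Wnt3a in place of 1381, 520, 10 and 2044, 7913 and 3754 for control siRNA in place of 5501 and 2227, 4095 and 3846 for β-catenin siRNA in place of 2604 and 2608, 13147 and 11950 for FZD8_CRD in place of 10322 and 9162, and 10 and 149 for the differences in place of 4 and 18.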
